A study of Mus musculus with 7 samples.

Results

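The hippocampal miRNAs of trained NIPP1* mice were compared with those of trained control mice, the only pair of the 4 sample groups that differ in genotype alone in which both groups hold more than 1 library. Its members are 5 of the 7 libraries, those whose sample labels name a trained group, 2 of them trained NIPP1* (libraries 6 and 7) and 3 trained wildtype (libraries 3, 4 and 5, called trained control here). All mice were of the C57BL/6 strain and were adult, 3 to 5 months old by the labels, and male by the study's methods. NIPP1* mice carry 2 transgenes, the PP1-binding domain of NIPP1 fused to EGFP under a tetO promoter and the reverse transactivator rtTA2 under the CaMKIIalpha promoter, which drives expression in forebrain neurons. A doxycycline diet switches the fragment on, and which transgenes the control littermates carried, and whether they ate the diet, are not stated for these libraries. Training was an object recognition task, in which mice explore unfamiliar objects, and hippocampi were pooled and collected after training. How mice were divided among libraries is not given, so the spread between libraries may be technical in part, and the p-values measure that spread. Library 1 (non-trained control) and library 2 (non-trained NIPP1*), from mice habituated to the arena without objects, were set beside the contrast but do not enter its difference.

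PP1 is a serine/threonine phosphatase that restrains memory formation, and NIPP1 is a nuclear protein that binds and inhibits it. A miRNA gene is transcribed as a long primary transcript, cut in the nucleus to a hairpin by the microprocessor and in the cytoplasm to a duplex by Dicer, after which 1 arm is usually kept as the guide of the silencing complex. A miRNA recognises its targets mainly through its seed, bases 2 to 8 from the 5′ end, so that miRNAs with the same seed share predicted targets. Adult hippocampus is rich in the neuronal miR-9, miR-124 and miR-128, in let-7 and in miR-29, and other cell types contribute miRNAs of their own, such as miR-219 and miR-338 in oligodendrocytes and miR-451 and miR-144 in red blood cells.

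The following mature sequences belong to the miRNAs on which the comparison turns, with the seed in capitals. They are the RefSeq entries (GRCm38.p6) whose sequence equals the one at the deposited mm9 locus, and a star in a name marks the minor arm in the older nomenclature of the authors. The first set had values above all trained control values in both trained NIPP1* libraries.
miR-344d-3*: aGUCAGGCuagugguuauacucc
miR-219-5p: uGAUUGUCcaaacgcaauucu
miR-136: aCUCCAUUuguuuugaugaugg
miR-338-3p: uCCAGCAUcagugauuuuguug
miR-144: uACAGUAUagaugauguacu
miR-451: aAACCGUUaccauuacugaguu
miR-344c: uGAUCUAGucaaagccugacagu

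The second set had values below all trained control values in both.
miR-125a-5p: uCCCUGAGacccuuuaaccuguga
miR-149: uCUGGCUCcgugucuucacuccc
miR-483: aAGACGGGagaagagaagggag
miR-2137: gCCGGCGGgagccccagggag

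The third set is the miR-183/96/182 cluster, which the study examined closely. The seed of miR-96 differs by 1 letter from that of each of the others.
miR-183: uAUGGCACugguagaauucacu
miR-96: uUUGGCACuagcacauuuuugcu
miR-182: uUUGGCAAugguagaacucacaccg

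No seed was shared within the first or the second set, so each of their members stands for a separate group of predicted targets. The first set was poorer in G and C than the second, with a GC content of 30% in miR-144 and 36.4% in miR-451 and miR-136 against 60.9% in miR-149 and 85.7% in miR-2137.

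Before the values are given, 2 features of the libraries have to be stated. First, the table that the authors deposited for the trained mice assigns the libraries to the opposite genotypes. The overall mean in that table gives a weight of 0.4 to the column named trained wildtype, which is that of 2 libraries out of 5, and the means of 469 of 475 miRNAs (98.7%) lay nearer to those of the libraries with the exchanged labels. Which assignment is right cannot be told from these data. Every direction below follows the sample labels, and under the assignment of the table each log2 fold change keeps its size and turns its sign. Second, libraries 4 and 5 stood apart from all the others, and library 3 did not lie with its own group. For 319 deeply read miRNAs (100 reads or more on average), the median absolute log2 ratio was 0.16 between library 3 and library 6 and 0.16 between library 3 and library 7. It was 0.25 between libraries 3 and 4 and 0.28 between libraries 3 and 5, against 0.14 between libraries 4 and 5 and 0.14 between libraries 6 and 7. Library 3 was as near to the non-trained libraries, at 0.16 from the control (library 1) and 0.14 from NIPP1* (library 2), so its likeness was not particular to trained NIPP1*. Every distance between libraries 4 or 5 and any of the other 5 libraries was from 0.21 to 0.30, and those among libraries 1, 2, 3, 6 and 7 were from 0.14 to 0.18. The 5 trained libraries held between 7285391 and 10017683 miRNA reads, so depth was similar in both groups.

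**Figure D1:**
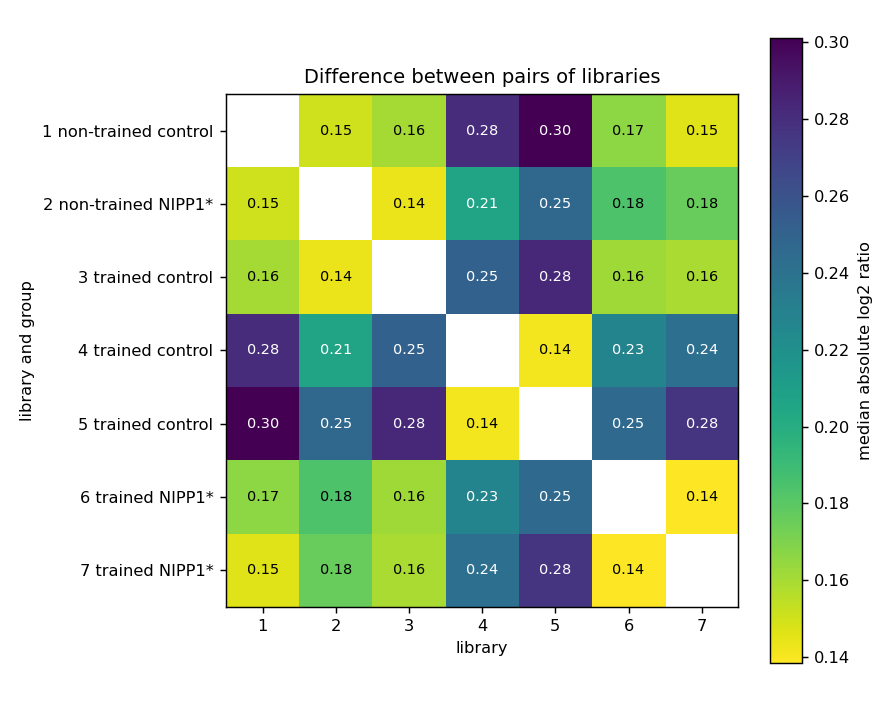
Median absolute log2 ratio of the RPM over 319 miRNAs for each pair of the 7 libraries, with libraries on both axes, their groups on the left and the colour scale in log2 units. Libraries 4 and 5 form 1 light pair at 0.14 and libraries 6 and 7 another at 0.14, while library 3 is at 0.25 and 0.28 from the libraries of its own group.

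The level of a miRNA is given as RPM, its reads scaled to a library total of 1e+06 miRNA reads, and fold changes are differences of log2(RPM + 0.5), trained NIPP1* minus trained control, with the standard error of limma. A mean of 10 reads or more was reached by 476 miRNAs, of which 0 (0% of those tested) had a Benjamini-Hochberg adjusted p under 0.05 in limma. The lowest limma adjusted p was 0.0882, for miR-344d-3*. At an unadjusted p under 0.05 there were 22 higher (4.62%) and 12 lower (2.52%) miRNAs in trained NIPP1*. edgeR's quasi-likelihood test on the recovered reads also called 0 miRNAs, and DESeq2's Wald test called 1, miR-344d-3*, with an adjusted p of 0.00115.

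Most miRNAs were at similar levels in both groups. Among the 476 miRNAs, 445 (93.5%) had a log2 fold change within 0.5 of 0, 5 lay above 1 (miR-344d-3*, miR-144, miR-144*, miR-451 and miR-219-5p) and 0 lay below -1. The median standard error was 0.20, and among the 319 deeply read ones it was 0.17. In a rank comparison of 2 against 3 libraries the exact two-sided p cannot go below 0.2, so a complete separation of the groups is given as a count. Both trained NIPP1* values lay above all 3 trained control values for 89 miRNAs (18.7%) and below all 3 for 37 (7.77%). With TMM scaling these counts were 59 and 62, and those at an unadjusted p under 0.05 were 12 higher and 21 lower, so the excess of higher miRNAs depends on the scaling. Without library 3, 113 miRNAs had an unadjusted p under 0.05 in place of 34, and the lowest limma adjusted p was 0.0654. Leaving out another trained control library lowered the count instead, to 17 without library 4 and 11 without library 5. The lowest limma adjusted p was then 0.148 and 0.477, in that order. Leaving out a trained NIPP1* library leaves 1 in that group, so no count is given for it.

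**Figure D2:**
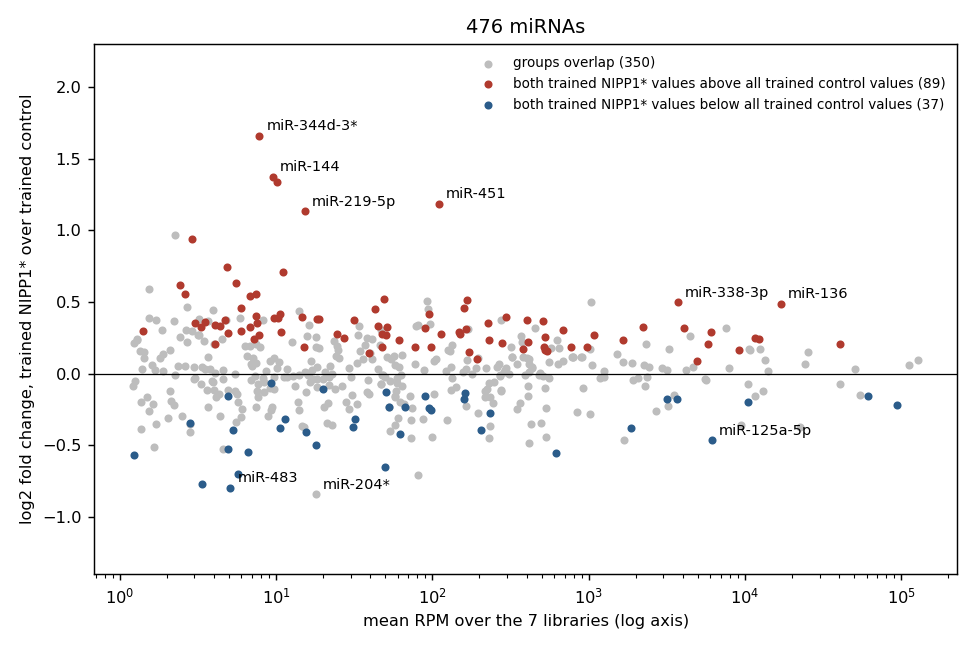
Log2 fold change of trained NIPP1* over trained control against the mean RPM over 7 libraries on a log axis, with 1 point for each of 476 miRNAs. Red points are the 89 miRNAs whose trained NIPP1* values both lay above the trained control values, blue points the 37 with both below and grey points the 350 whose groups overlap, and 5 points lie above 1.

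The largest fold change was in the miR-344 family, a rodent family of brain miRNAs whose hairpins lie together on chromosome 7. miR-344d-3* (chr7:68871182-68871204, minus strand, mm9, in no annotated host gene) was at 12.22 and 15.77 RPM in the trained NIPP1* libraries 6 and 7, and at 4.27, 4.67 and 3.33 RPM in the trained control libraries 3, 4 and 5. The groups did not overlap, and both trained NIPP1* values were far above the highest trained control value. The means were 14.0 ± 2.51 RPM (SD, n = 2) and 4.09 ± 0.688 RPM (SD, n = 3), and the log2 fold change was 1.66 with a standard error of 0.23. These levels rest on 89 and 158 reads in trained NIPP1* and on 35, 39 and 26 reads in trained control. With each trained library left out in turn the log2 fold change lay between 1.48 and 1.84, and it was 1.69 without library 3.

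Of the 6 tested products of the miR-344 family, 4 (66.7%, against 18.7% of all tested miRNAs) had groups apart and higher in trained NIPP1*, and the median log2 fold change of the family was 0.51, beside 0.04 for all tested miRNAs. miR-344c was at 7 and 7.09 RPM in trained NIPP1* and at 5.00, 4.19 and 3.97 RPM in trained control, a log2 fold change of 0.63 with a standard error of 0.20. The log2 fold changes of miR-344f-3p (0.75) and miR-344f-5p (0.39) were smaller than that of miR-344d-3*, and all of these members were below 16 RPM in the trained libraries. The most abundant product, miR-344, was at 207.8 and 220.5 RPM in trained NIPP1* and between 186.2 and 259.1 RPM in trained control. The summed level of the family, which miR-344 dominates, overlapped between the groups. The log2 fold change of miR-344 was 0.04, and with TMM scaling it turned to -0.04.

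Of the 5 tested products of oligodendrocytes, the cells that form myelin in the brain, 2 had an unadjusted p under 0.05, miR-219-5p and miR-338-3p. miR-219-5p, which promotes the maturation of oligodendrocytes and is made by hairpins on chromosomes 17 and 2, was at 26.7 and 18.965 RPM in trained NIPP1* and at 9.09, 9.46 and 11.6 RPM in trained control. The groups did not overlap, with means of 22.8 ± 5.47 RPM (SD, n = 2) and 10.04 ± 1.34 RPM (SD, n = 3). Its log2 fold change was 1.13 with a standard error of 0.22 (limma adjusted p = 0.331), and 1.07 without library 3. miR-338-3p (chr11:119876095-119876116, minus strand, in an intron of Aatk and on its strand) was at 4348 and 4104 RPM in trained NIPP1* and at 3290, 2757 and 2958 RPM in trained control. These groups were apart as well, with a log2 fold change of 0.50, a standard error of 0.12 and a limma adjusted p of 0.435.

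The third product above all controls was miR-219-3p, at 634.3 and 507.9 RPM against 371.2, 455.3 and 504.5 RPM, a log2 fold change of 0.37. Library 7 was barely above library 5. In all, 3 of the 5 tested oligodendrocyte products (60%, against 18.7% of all tested) had groups apart and higher, with a list median of 0.37, and the summed level lay between 4672 and 5062 RPM in trained NIPP1* and between 3266 and 3707 RPM in trained control. In pooled tissue, more cells of a type and more RNA per cell cannot be told apart. The same products were at 5461 RPM in the non-trained control and 4400 RPM in the non-trained NIPP1* library.

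Red blood cell miRNAs had the widest relative difference of any list. miR-451, the most abundant of them and a miRNA that is processed without Dicer, was at 119.6 and 229.3 RPM in trained NIPP1* and at 114.9, 57.2 and 57.9 RPM in trained control. Library 6 was barely above library 3, so the groups were only just apart. miR-144, which is made from the same transcript, was at 12.5 and 21.6 RPM against 10.6, 4.67 and 4.35 RPM. On the log2 scale the difference was 1.19 ± 0.39 (standard error) in miR-451 and 1.37 ± 0.42 in miR-144, and the limma adjusted p was 0.639 for both. The other arm, miR-144*, had a log2 fold change of 1.33, so that 3 of 4 tested products (75%, against 18.7% of all tested) were apart and higher. The fourth, miR-486*, had a log2 fold change of -0.20.

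The summed level of these 4 products was 150.2 and 277.5 RPM in trained NIPP1* and 143.1, 73.2 and 73.7 RPM in trained control. Library 3 was close to library 6 and well above libraries 4 and 5, so the list moved with the nearness of library 3 to the trained NIPP1* libraries given above. Leaving out library 3 gave log2 fold changes of 1.52 (miR-451) and 1.76 (miR-144), and leaving out library 7 gave 0.72 and 0.99. Residual blood in the tissue is a source of these miRNAs, and its part in their levels was not tested.

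**Figure D3:**
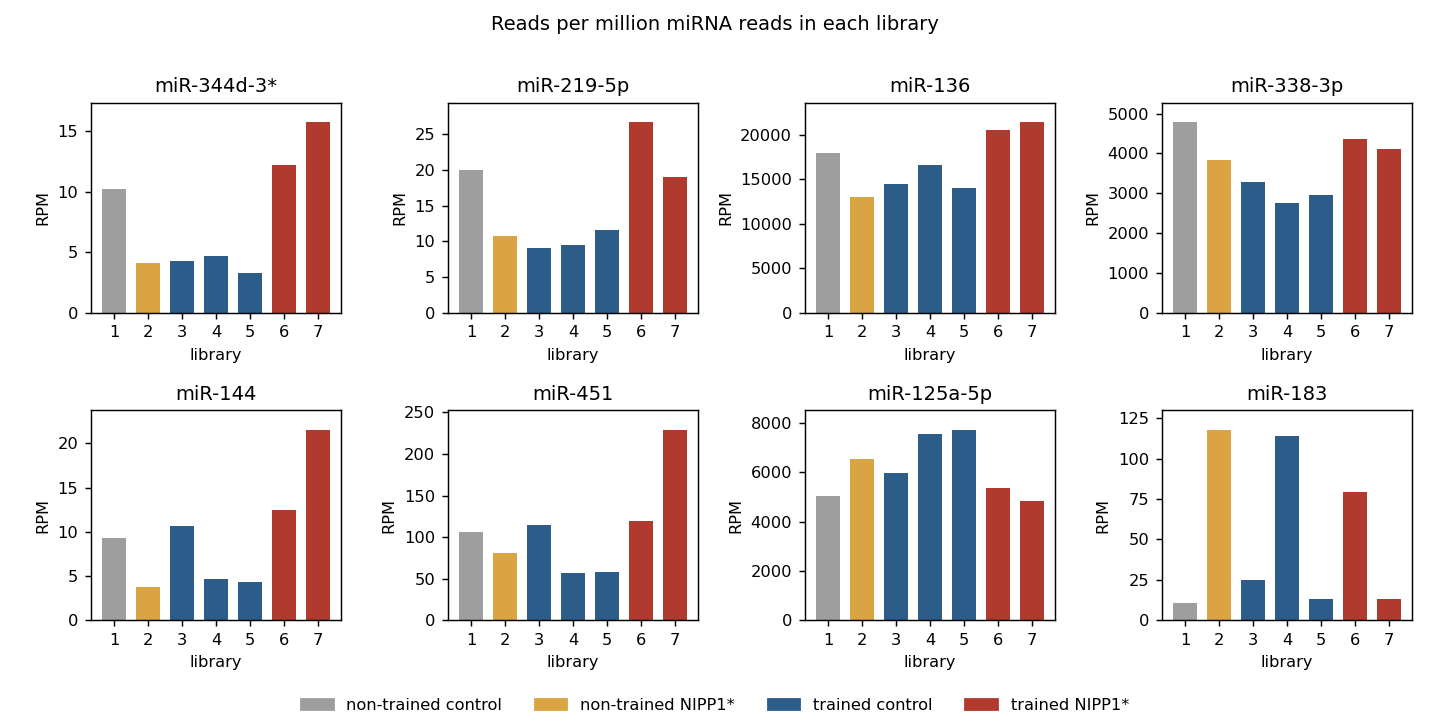
Bars give the level of 8 miRNAs in RPM in each of the 7 libraries, with colours for the 4 groups and each vertical axis starting at 0. In the trained libraries miR-344d-3*, miR-219-5p, miR-136, miR-338-3p, miR-144 and miR-451 are above every trained control in libraries 6 and 7, miR-125a-5p is below, and miR-183 is high in libraries 4 and 6 and low in libraries 3, 5 and 7.

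Chromosome 12 holds the imprinted Dlk1-Dio3 region, whose miRNAs are expressed from the maternal chromosome and are abundant in neurons. miR-136 (chr12:110833541-110833562, plus strand, antisense to an exon of Rtl1) was at 20580 and 21450 RPM in trained NIPP1* and at 14500, 16580 and 14010 RPM in trained control. The groups were apart, with means of 21015 ± 615 RPM (SD, n = 2) and 15030 ± 1365 RPM (SD, n = 3), and the log2 fold change was 0.49 with a standard error of 0.10 (limma adjusted p = 0.331). It rests on at least 109530 reads in every trained library. The other arm of its hairpin, miR-136*, overlapped between the groups, with 1469 and 1612 RPM against 1612, 1378 and 1239 RPM. Its log2 fold change was 0.13 with a standard error of 0.14. The log2 ratio of the 2 arms differed by 0.35 with a standard error of 0.17 (limma adjusted p = 0.594), so a difference between the arms was not shown.

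Among the products of the miR-127 and miR-136 group, most of which lie near Rtl1, 2 of 15 tested products (13.3%, below the 18.7% of all tested) were apart and higher, miR-136 and miR-540-5p, and 0 were lower. miR-127, an abundant member, was at 11380 and 12440 RPM against 11440, 15040 and 12580 RPM. The large miR-379 to miR-410 cluster farther along the same chromosome had 12 of 54 tested products apart and higher (22.2%) and 3 lower (5.6%), shares near those of all tested miRNAs. miR-379, its first hairpin, was at 2431 and 2613 RPM in trained NIPP1* and at 2108, 2041 and 1903 RPM in trained control, a log2 fold change of 0.32 with a standard error of 0.11. The star arm miR-379* (0.33) and both arms of miR-380 (0.41 and 0.56) were apart in the same direction, whereas miR-323-3p (-0.40), miR-377* (-0.40) and miR-485* (-0.37) were apart in the other. The most abundant product of the cluster, miR-541, had a log2 fold change of 0.04, which TMM scaling turned to -0.04.

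The neuronal miRNAs, which served to check the tissue, were abundant in all libraries, with a summed level between 223637 and 254696 RPM in trained control and between 238834 and 240486 RPM in trained NIPP1*. The most abundant miRNA of the hippocampus, miR-9, a regulator of neuronal differentiation, was at 129600 and 128100 RPM in trained NIPP1* and at 141300, 115400 and 107500 RPM in trained control. The groups overlapped, and the 95% interval of the log2 fold change ran from -0.18 to 0.37. miR-124, which represses non-neuronal transcripts, was at 4091 and 5135 RPM against 3671, 3733 and 3637 RPM, a log2 fold change of 0.32. miR-153, hosted in an intron of Ptprn2, was at 220.0 and 173.4 RPM against 147.3, 139.4 and 138.9 RPM, a log2 fold change of 0.46 with a standard error of 0.16 that was 0.29 without library 6. miR-128 lay the other way, at 58385 and 57695 RPM against 60475, 62300 and 71940 RPM. Of the 16 tested neuronal products 4 were apart and higher (25%, against 18.7% of all tested) and 3 apart and lower (18.8%, against 7.77%), and the list median was 0.08. CREB drives miR-132 and miR-212 after neuronal activity, and none of their 4 products was apart, with log2 fold changes between -0.20 and 0.02.

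The 10 most abundant miRNAs took between 62.5% and 64% of the reads of a trained library, and all of them had log2 fold changes between -0.22 (miR-125b-5p) and 0.21 (let-7f). let-7f was at 45990 and 44230 RPM in trained NIPP1* and at 42085, 38440 and 36910 RPM in trained control. let-7g and let-7i*, of the same growth-restraining family, were apart in the same direction, whereas let-7d and let-7b* were apart in the other. The abundant let-7c overlapped, at 58020 and 50430 RPM against 52360, 62100 and 66190 RPM. In the family 3 of 16 tested products were apart and higher (18.8%) and 2 lower (12.5%), near the 18.7% and 7.77% of all tested miRNAs. In the miR-23/27/24 clusters, found in many cell types, 5 of 7 tested products (71.4%, against 18.7% of all tested) were apart and higher, with small log2 fold changes from 0.10 for miR-23a to 0.29 for miR-27b*. miR-27b was at 1134 and 1261 RPM against 965.9, 994.7 and 1018 RPM, a log2 fold change of 0.27 with a standard error of 0.12.

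Among the miRNAs that were lower in trained NIPP1*, miR-125a-5p had the lowest p. This relative of lin-4, whose hairpin lies on chromosome 17 (chr17:17967781-17967804, plus strand, in an exon of Ncrna00085), was at 5373 and 4845 RPM in trained NIPP1* and at 5985, 7536 and 7732 RPM in trained control. Library 3 was again the trained control nearest to the trained NIPP1* group. The log2 fold change was -0.46 with a standard error of 0.14 (limma adjusted p = 0.639), and -0.58 without library 3. miR-125b-5p, which has the same seed, was at 83435 and 87005 RPM against 87840, 104150 and 106850 RPM, and miR-99b at 2885 and 2962 RPM against 3287, 3231 and 3395 RPM. These members made the miR-99/100 and miR-125 list the only one of 28 whose summed level was lower in trained NIPP1* without overlap, 109941 and 114891 RPM against 115905, 131883 and 136298 RPM. Within it 3 of 10 tested products (30%, against 7.77% of all tested) were apart and lower and 1, miR-100, apart and higher.

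The other miRNAs with separated groups and the lowest p in this direction lay at all levels of abundance. miR-149, in an intron of Gpc1, was at 1750 and 1410 RPM against 1878, 2197 and 2074 RPM, a log2 fold change of -0.38 that was -0.22 without library 7. miR-320, whose hairpin bypasses the microprocessor, was at 510.5 and 438.5 RPM against 554.6, 725.9 and 839.5 RPM, a log2 fold change of -0.56 with a standard error of 0.20. miR-483, in an intron of Igf2, was at 4.12 and 2.89 RPM against 4.76, 6.70 and 8.06 RPM, the largest fold change of the separated lower miRNAs at -0.80. It rests on 30 and 29 reads in trained NIPP1*. The remaining ones of the 10 with the lowest p were miR-2137 (-0.77), miR-29b-1* (-0.65), miR-1198-5p (-0.55, and -0.33 without library 6), miR-193b* (-0.52), miR-138-2* (-0.42) and miR-323-3p (-0.40). miR-29b-1* was at 42.6 RPM in library 3, near the 40.6 and 36.0 RPM of trained NIPP1* and far from the 66.5 and 77.9 RPM of libraries 4 and 5. Among miRNAs averaging at least 100 reads, the large negative values included miR-504, in an intron of Fgf13, at 13.3 and 15.6 RPM against 18.3, 18.6 and 25.6 RPM (-0.50). They also included miR-1224, from an intron of Vwa5b2, at 73.6 and 44.2 RPM against 52.3, 114.8 and 136.7 RPM (-0.71). The groups of miR-1224 overlapped, and its value lay between -1.13 (without library 3) and -0.35 (without library 7) with 1 library left out.

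The higher miRNAs outside the lists included miR-455*, from an intron of Col27a1, at 4.39 and 4.19 RPM in trained NIPP1* and at 1.59, 1.68 and 2.94 RPM in trained control. The groups were apart at this very low level, with a log2 fold change of 0.94 and a standard error of 0.29. miR-190, in an intron of Tln2, was at 206.2 and 175.6 RPM against 167.4, 118.2 and 119.5 RPM (0.51), and miR-32 at 66.4 and 54.0 RPM against 50.7, 39.3 and 35.9 RPM (0.52). In both of these library 3 was the highest control. Removing the dependence on GC content described further on lowered them to 0.23 and 0.34, with the groups still apart.

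The miR-183/96/182 cluster, known from sensory organs, was not separated between the trained groups. miR-183 was at 79.6 and 13.0 RPM in trained NIPP1* and at 24.9, 114.2 and 13.1 RPM in trained control. Each group held 1 library with high values and at least 1 with low values. The same libraries 4 and 6 were high for miR-182 (118.0 and 81.95 RPM) and miR-96 (11.25 and 7.14 RPM). The log2 fold changes (miR-183 -0.05, miR-182 -0.36, miR-96 0.02) had standard errors between 0.91 and 1.01. For miR-183 the 95% interval ran from -2.46 to 2.35, so that even a large change in either direction was not detectable here. Single libraries decided the sign of miR-183, with -1.34 without library 6, 0.83 without library 4 and 1.23 without library 7.

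The miR-200 family of epithelia varied with the same pair of libraries, summing to 321.3 and 362.0 RPM there against 113.3, 223.5 and 117.4 RPM in libraries 3, 5 and 7. Choroid plexus miRNAs, among them miR-448-3p and miR-1298 from introns of Htr2c, were high in libraries 3 and 6, at a summed 2896 and 2150 RPM against 989.5, 625.6 and 857.9 RPM in libraries 4, 5 and 7. miR-448-3p had a log2 fold change of 0.51 with a standard error of 0.94, the sign of which turned to -0.28 without library 5 and without library 6. miR-204, the leading miRNA of this list, was at 871.6 and 480.7 RPM against 1154, 492.7 and 400.1 RPM. Its other arm, miR-204*, with 16.6 and 7.39 RPM against 23.5, 22.0 and 16.2 RPM, had the largest negative log2 fold change of all tested miRNAs (-0.84). Its groups overlapped, and leaving out library 6 gave -1.402 and leaving out library 7 gave -0.29. In none of the miR-183, miR-200 and choroid plexus lists was any product apart.

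The remaining markers of other cell types overlapped between the groups as sums. Leukocyte and microglia miRNAs summed to 1164 and 1359 RPM in trained NIPP1* and to between 1258 and 1384 RPM in trained control, with miR-142-5p apart and higher and miR-223 apart and lower. Blood vessel miRNAs, with miR-143 of smooth muscle and miR-126 of endothelium, had log2 fold changes between -0.07 and 0.12 in all 6 tested products. The miRNAs of the Hox clusters, which mark hindbrain, summed to at most 47.96 RPM in any trained library, and only miR-10a and miR-10b were tested. Neuroendocrine miR-7a was at 7660 and 8497 RPM against 7749, 6925 and 5043 RPM. The other families were mixed or near 0. Apart and higher were 3 of 7 products of miR-181, 3 of 10 of miR-15, miR-16 and miR-195 (among them miR-16, with a log2 fold change of 0.24), 2 of 11 of miR-30 and 2 of 13 of the miR-17-92 type clusters, with 0 lower in each. These shares were 42.9%, 30%, 18.2% and 15.4% in that order, beside 18.7% of all tested miRNAs. The miR-29 family had miR-29b higher (0.24) and miR-29b-1* lower, neuroendocrine miRNAs had miR-7a-1* higher (0.45) and miR-375 lower (-0.23), the Sfmbt2-type repeat miRNAs had miR-669h-5p lower (-0.57), and among the miR-129 products miR-129-1-3p was higher (0.18). None of the tested products of miR-26, miR-135, miR-34 and miR-449, and miR-221 and miR-222 was apart, though 1 each of miR-26 and miR-135 was with the GC slope removed (given further on). Over all 28 lists the summed level was apart and higher in 3 (red blood cell, oligodendrocyte and miR-23/27/24), apart and lower in 1, and overlapping in 24, and 10 lists had no member apart. The miR-23/27/24 sums were barely apart, at no less than 5717 RPM in trained NIPP1* and no more than 5682 RPM in trained control. Those of miR-99/100 and miR-125 were barely apart too (114891 against 115905 RPM). The sums were not repeated with TMM scaling.

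The ratio of the 2 arms of a hairpin is a measure that the scaling of a library hardly moves. Among 175 pairs of tested arms, some of which share an arm that more than 1 hairpin makes, 0 (0%) had a limma adjusted p under 0.05 for the arm ratio, and 13 had an unadjusted p under 0.05. The lowest p was that of miR-138 and its minor arm from the second hairpin.
miR-138: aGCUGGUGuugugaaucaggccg
miR-138-2*: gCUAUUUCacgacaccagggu

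miR-138, which is made by the Mir138-1 and Mir138-2 hairpins and is enriched at synapses, was at 6056 and 7127 RPM in trained NIPP1* and at 5958, 5579 and 4689 RPM in trained control. miR-138-2*, the other arm of Mir138-2, was at 44.2 and 53.6 RPM against 66.7, 68.7 and 61.0 RPM. The log2 ratio of the arms was 7.08 and 7.04 in trained NIPP1* and between 6.25 and 6.47 in trained control, a difference of 0.71 with a standard error of 0.14 (limma adjusted p = 0.244). The minor arm of the other hairpin, miR-138-1*, had a log2 fold change of 0.19, in the direction of miR-138 itself. The ratio of miR-219-5p to miR-219-3p was higher in trained NIPP1* by 0.77 with a standard error of 0.17. In the miR-377 hairpin the order of the arms turned over.
miR-377*: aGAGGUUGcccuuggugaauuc
miR-377: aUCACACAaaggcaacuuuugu

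The log2 ratio of miR-377* to miR-377 was -0.33 and -0.25 in trained NIPP1* and 0.36, 0.35 and 0.74 in trained control, a difference of -0.77 with a standard error of 0.18 and a limma adjusted p of 0.244. Both arms were near 5 RPM on average. Without library 3, the ratio of miR-204 to miR-204* was called in limma, with a difference of 1.28 and a limma adjusted p of 0.0249. The arms had log2 fold changes of the same sign in 106 of the 175 pairs (60.6%).

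Summing miRNAs by seed gave 401 families, of which 0 (0%) were called. The 3 lowest p were those of seeds with a single tested member, miR-344d-3* (limma adjusted p = 0.0590), miR-219-5p (0.253) and miR-136 (0.301), so no family of several miRNAs led the comparison.

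Base composition moved with the result. The 89 miRNAs apart and higher in trained NIPP1* had a median GC content of 43.5%, the 37 apart and lower one of 54.5%, and the 350 with overlapping groups one of 50%. Among the 231 miRNAs below the median GC content 67 were apart and higher and 10 lower, and among the other 245 these counts were 22 and 27. Over the 476 miRNAs the log2 fold change correlated with GC content with a Spearman's rho of -0.45, a description across miRNAs that share 5 libraries. The slope of a library's deviation from the mean of all libraries was 0.12 log2 units per 10 points of GC in libraries 4 and 5, -0.06 in library 3, -0.07 in library 6 and -0.06 in library 7. It was -0.07 in the non-trained control (library 1) and 0.024 in non-trained NIPP1* (library 2). A negative slope was thus found in libraries of both genotypes, and the larger positive ones were those of libraries 4 and 5. In the non-trained pair the slope was lower in the control. The trained groups overlapped, since library 3 (-0.065) lay between library 6 (-0.074) and library 7 (-0.056).

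After the GC slope was removed from each library, 0 miRNAs were called, the counts of separated groups were 85 higher and 36 lower, and 70 of the 89 higher and 27 of the 37 lower miRNAs kept their separation. The log2 fold changes were then 1.65 (miR-344d-3*), 1.02 (miR-219-5p), 0.41 (miR-338-3p), -0.46 (miR-125a-5p) and 1.051 (miR-451). The difference was smaller in miR-136, from 0.49 to 0.35 with the groups still apart. It was near 0 in let-7f (from 0.21 to 0.024) and let-7g (from 0.17 to 0.031), whose groups then overlapped, as did those of miR-29b (from 0.24 to 0.093), miR-219-3p (from 0.37 to 0.33) and miR-99b (from -0.18 to -0.024). By list, the members apart and higher went from 3 to 1 of 7 for miR-181 (14.3%), from 3 to 1 of 16 for let-7 (6.25%), from 2 to 1 of 13 for the miR-17-92 type clusters (7.69%) and from 3 to 2 of 5 for oligodendrocytes (40%), beside 17.9% of all tested miRNAs. Those apart and lower went from 3 to 2 of 10 for miR-99/100 and miR-125 (20%). The counts were the same as before for the miR-344 family (4 of 6) and the red blood cell miRNAs (3 of 4), and 6 of 7 in place of 5 for miR-23/27/24. The cluster from miR-379 to miR-410 went from 12 to 10 higher (18.5%) and from 3 to 5 lower (9.26%) of 54, beside 7.56% lower of all tested. Of the 4 products each of miR-26 and miR-135, 1 became separated and lower, miR-26b (from -0.085 to -0.25) and miR-135a (from -0.26 to -0.46, with a GC content of 30.4%). Of the miR-129 products, miR-129-1-3p then overlapped and miR-129-2-3p was apart and lower (-0.13). A further member was apart and higher in the miR-30 list (3 of 11) and in that of miR-127 and miR-136 (3 of 15), a further one was apart and lower among the leukocyte and microglia (2 of 8) and neuronal (4 of 16) lists, and miR-375 of the neuroendocrine list then overlapped. miR-124, with a GC content of 60%, went from 0.32 to 0.43. The distance of library 3 to libraries 4 and 5 was then 0.21 and 0.23 in place of 0.25 and 0.28, and that to libraries 6 and 7 was 0.16 and 0.15.

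**Figure D4:**
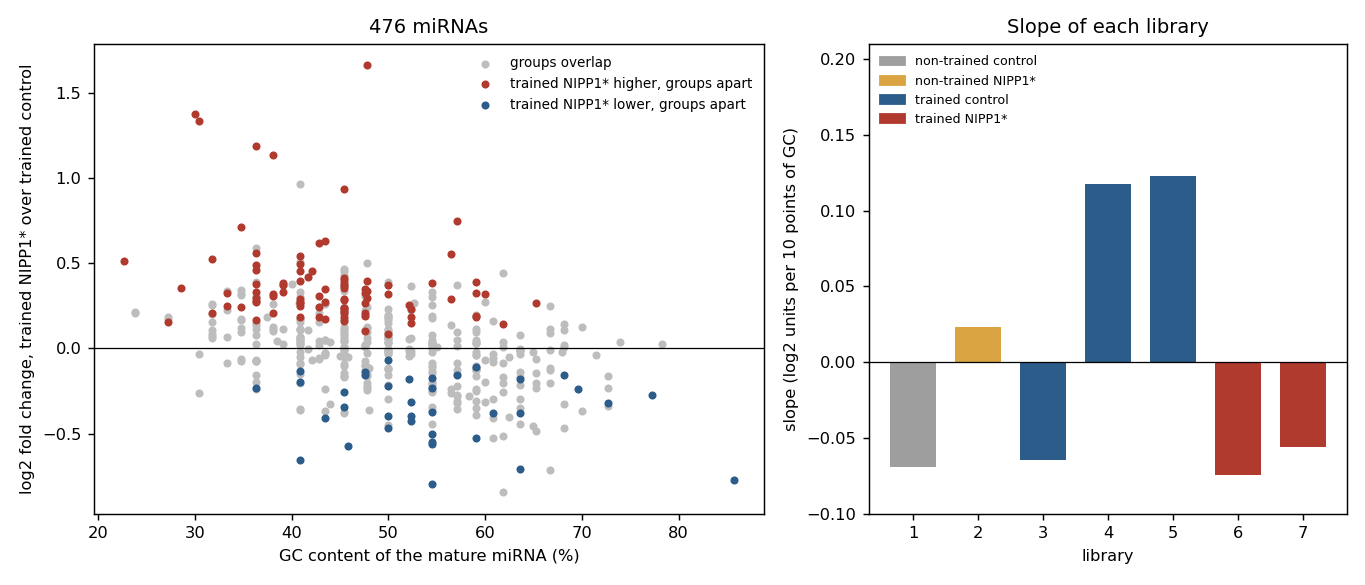
Left, log2 fold change of trained NIPP1* over trained control against the GC content of the mature miRNA in percent for 476 miRNAs, coloured by whether the groups are apart; right, the slope of each library's deviation on GC content in log2 units per 10 points of GC. Red points lie mostly at low and blue points at high GC content, and libraries 4 and 5 have positive slopes near 0.12 whereas libraries 1, 3, 6 and 7 have negative ones and library 2 lies near 0.

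The non-trained libraries, which were not used to find the separated miRNAs, were set beside them. By the labels, their difference between NIPP1* and control ran the other way for most of them, as for most tested miRNAs. With the trained sets exchanged, as in the deposited table, it would run the same way for most. miR-344d-3* was at 10.24 RPM in the non-trained control and 4.09 RPM in the non-trained NIPP1* library, miR-219-5p at 19.965 and 10.8 RPM, miR-136 at 18000 and 13010 RPM, and miR-338-3p at 4788 and 3834 RPM. In each of these the non-trained control was above every trained control library. In the other direction, miR-125a-5p was at 5039 RPM in the non-trained control and 6531 RPM in the non-trained NIPP1* library.

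Of the 89 miRNAs apart and higher in trained NIPP1*, 60 (67.4%) were lower in the non-trained NIPP1* library than in the non-trained control, and of the 37 apart and lower, 29 (78.4%) were higher. By the labels the sign was opposite in 64.3% of all 476 miRNAs, so the share among the higher ones was near that of all tested. With the trained sets exchanged, as in the deposited table, those 64.3% would have the same sign in both contrasts. Over the 476 the contrasts, which share no library, had a Pearson's r of -0.38 and a Spearman's rho of -0.39 across miRNAs. Both would be positive, at the same size, with the trained sets exchanged. Libraries 1, 6 and 7 all lay above libraries 2, 3, 4 and 5 for 37 miRNAs and below them for 22. Libraries 2, 6 and 7, which share the NIPP1* label, all lay above libraries 1, 3, 4 and 5 for 15 and below them for 5. The miR-344 family was split, with miR-344d-3* and miR-344f-5p among the 37 and miR-344c and miR-344f-3p among the 15. Also among the 15 were miR-23a, miR-23b and miR-27a, whereas miR-27b was among the 37. Among the 5 were miR-377* and let-7d. With the GC slope removed the r by the labels was -0.32 and the share of opposite signs 60.5%. For the miR-183 cluster the non-trained pair differed by log2 ratios between 2.21 and 3.36 and the trained groups by at most 0.36 in size. The non-trained pair is 1 library against 1, and libraries of the same trained group differed widely too. The cluster summed to 245.25 RPM in library 4 and 29.29 RPM in library 5, and to 170.35 RPM in library 6 and 25.86 RPM in library 7.

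The difference between the trained and the non-trained contrast was tested in the same model, where each non-trained group is 1 library and was assumed to vary like the trained ones, a spread the non-trained libraries cannot show. It was called for 0 of 476 miRNAs (0%), with 37 at an unadjusted p under 0.05. The lowest limma adjusted p was 0.126, for miR-344d-3*, with a difference of 2.89 and a standard error of 0.42, followed by miR-219-5p (1.99) and miR-136 (0.96) at 0.288. A model of genotype and training over all 7 libraries, added after the data were seen, called 0 miRNAs (0%) for genotype by the labels, with 10 at an unadjusted p under 0.05. With the trained libraries exchanged between the genotypes, as in the deposited table, the same model called 3 (0.63%), with 59 at an unadjusted p under 0.05. These were miR-344d-3* (log2 difference of NIPP1* to control -1.53, limma adjusted p = 0.0161), miR-136 (-0.48, 0.0445) and miR-219-5p (-1.05, 0.0445). Only miR-344d-3* was called there with TMM scaling or with the GC slope removed, and with 1 library left out it called 0 without library 1, 2, 5, 6 or 7, 2 without library 4 and 21 without library 3. In the fits with 0 calls miR-344d-3* still had the lowest limma adjusted p, between 0.0512 and 0.153.

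**Figure D5:**
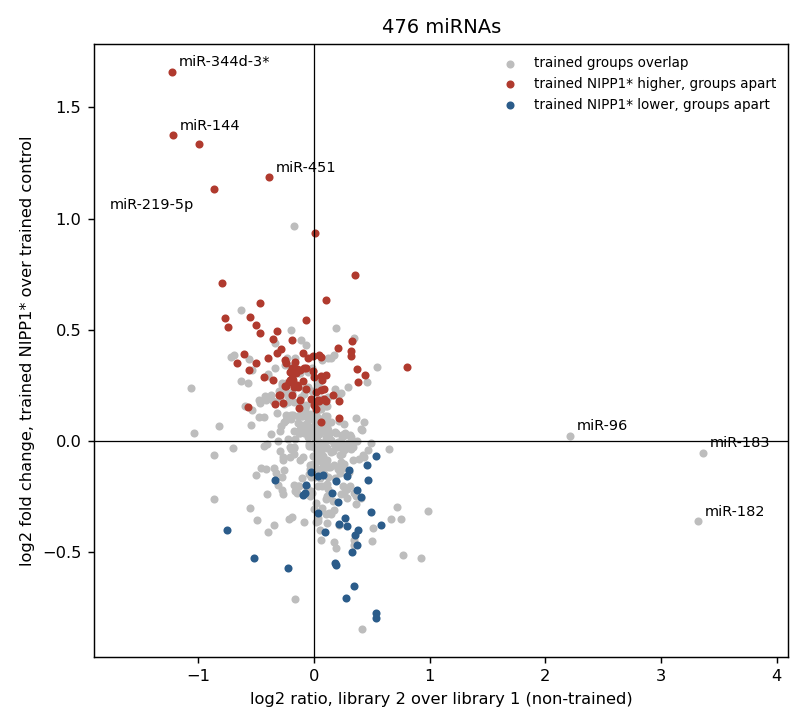
Log2 fold change of trained NIPP1* over trained control (vertical) against the log2 ratio of library 2 to library 1, the non-trained NIPP1* and control libraries (horizontal), for 476 miRNAs coloured by whether the trained groups are apart. The groups follow the sample labels. Most red points lie left of 0 and most blue points right of it, and miR-183, miR-182 and miR-96 lie far to the right at a trained fold change near 0.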

How the data were processed

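Small RNA of pooled mouse hippocampus was sequenced from 7 libraries. Per the paper's methods, the authors ran ncPRO-seq with bowtie on the trimmed reads, using NCBI37/mm9. Per the file headers, the deposited tracks hold the insert class of 19 to 26 nt. The submitters' processing notes name CASAVA 1.7.0, Bowtie and bedtools. The deposited files list each mature locus with its share, in percent, of a library's miRNA reads. The deposited tables hold a signal (size-factor scaled reads averaged per group) and the authors' fold changes and p-values, which were not used. Of single libraries, 2 columns were not used.

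Percentages were multiplied to RPM, and the 806 loci were joined to 756 sequences, each copy carrying all reads of its miRNA. Names of the authors were joined through the reads of libraries 1 and 2 and the hairpins of GENCODE vM1: 165 by name and reads, 539 by hairpin and reads and 7 by reads alone. Of the 476 tested, 411 equal a RefSeq entry. The smallest steps between low values gave back whole reads, and 100% of values below 0.0099% came out whole in every library, within the rounding of the files (0.038 to 0.053 reads), with 1 read worth between 0.1 and 0.137 RPM. Depth was 8890303, 8072997, 8200538, 8352249, 7817740, 7285391 and 10017683 reads in libraries 1 to 7, and PCR copies cannot be told apart from separate molecules.

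The authors' Wilcoxon test cannot reach 0.05 with 2 against 3 libraries. limma (trend, 1 mean per group over 7 libraries, Benjamini-Hochberg over miRNAs averaging 10 reads or more) was fitted to log2(RPM + 0.5), which understates changes of low miRNAs. It was also fitted to arm ratios, seed sums and the interaction. The rule for names took the 10 lowest p in each direction among separated miRNAs, the 5 largest fold changes in each direction with at least 100 reads, the 10 most abundant, the miR-183 cluster, the leading product of each of 28 lists, and the 3 lowest p of arm ratios and seeds. Arms were paired where neighbouring loci share a hairpin. Leading products of lists that overlapped are given by their lists. Others were named after their values were seen. The members and lists were chosen with earlier results of these data known. Alternatives were TMM, DESeq2 size factors, edgeR and DESeq2 on recovered reads, pseudocounts of 0.1 and 1, other filters, only the 5 trained libraries, no trend, leaving out each trained library and the authors' grouping. Removal of the GC slope and the model of genotype over both training states were added after the data were seen. Tests were run with limma 3.58.1, DESeq2 1.42.0 and edgeR 4.0.16 in R 4.3.3. Tables were prepared with pandas 2.3.3, scipy 1.17.1 and numpy 2.4.6 in Python 3.11.15.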

Additional observations from a re-analysis of the deposited data

How the results depend on the processing

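No miRNA was called in limma under any scaling, pseudocount, filter, trend setting or left-out library, and DESeq2's Wald test called 1. The counts of separated groups depended on scaling, with 59 higher and 62 lower under TMM factors. Among the 319 miRNAs averaging at least 100 reads, 58 were higher and 25 lower, where fewer miRNAs were tested. The counts of separated groups can only rise when a library is left out, since fewer values then have to be apart. With 1 trained library left out they ran from 104 to 163 higher and from 49 to 115 lower, and the calls of arm ratios from 0 to 1. In the model over both training states the grouping of the authors' tables gave 3 calls, and 1 with the GC slope removed. That grouping exchanges the trained sets, so it turned every sign of the trained comparison by construction. Among 861 values of 58 named miRNAs under the other alternatives, 796 kept direction and side of the threshold, 1 passed it and 64 changed sign, 32 of these with a library left out.

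With TMM factors the log2 fold change turned to -0.052 (miR-195), -0.050 (miR-24), -0.044 (miR-26a), -0.016 (miR-29a), -0.039 (miR-344), -0.037 (miR-541), -0.011 (miR-9*) and -0.035 (miR-96). With DESeq2 size factors it turned to -0.030 (miR-195), -0.028 (miR-24), -0.022 (miR-26a), -0.017 (miR-344), -0.014 (miR-541) and -0.014 (miR-96). With edgeR it turned to -0.053 (miR-195), -0.014 (miR-19b), -0.082 (miR-204), -0.050 (miR-24), -0.045 (miR-26a), -0.016 (miR-29a), -0.054 (miR-344), -0.014 (miR-448-3p), -0.042 (miR-541), -0.013 (miR-9*) and -0.33 (miR-96). With DESeq2's Wald test it turned to -0.031 (miR-195), -0.054 (miR-204), -0.028 (miR-24), -0.023 (miR-26a), -0.032 (miR-344), -0.019 (miR-541) and -0.24 (miR-96). The cause was not tested. With 1 trained library left out, the ranges that cross 0 were -0.15 to 0.12 (miR-10a), -0.18 to 0.082 (miR-132*), -0.22 to 0.025 (miR-143), -1.77 to 1.0498 (miR-182), -1.34 to 1.23 (miR-183), -0.071 to 0.12 (miR-195), -0.046 to 0.40 (miR-19b), -0.65 to 0.97 (miR-200a), -0.34 to 0.54 (miR-204), -0.31 to 0.013 (miR-221), -0.026 to 0.075 (miR-24), -0.048 to 0.19 (miR-344), -0.019 to 1.02 (miR-34c), -0.28 to 1.43 (miR-448-3p), -0.019 to 0.13 (miR-541), -0.44 to 0.045 (miR-669c) and -0.98 to 1.03 (miR-96).

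No paired analysis was possible because the labels give the libraries no replicate numbers that are shared between groups. Where a group was left with 1 library, that library was assumed to vary like the others. miRNAs under about 10 RPM rest on few reads, and small differences of these were not detectable.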
